A study of Mus musculus with 8 samples.

Results

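The array used in this study carries 1104 probes whose identifier begins with humanlincRNA, a class of long intergenic non-coding RNA probes, among 60930 probes outside the control classes. Every probe with that prefix was taken, and no measured value entered the choice. Each of the 1104 probes has a single spot per array. Their identifiers hold a number from 2 to 2514 and a plus or minus sign, with 549 plus probes and 555 minus probes. They cover 557 numbers, of which 547 have both a plus and a minus probe, 2 only a plus probe and 8 only a minus probe. The files give no gene symbol for these probes, so they are named by identifier. The meaning of the sign and the species for which the probes were designed are not given in the sources used here. No coordinates or sequences of these probes were used.

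Long intergenic non-coding RNAs are transcripts from between protein-coding genes that are not translated into long proteins. Many are transcribed by RNA polymerase II, spliced and polyadenylated, and most are present at lower levels and in fewer tissues than messenger RNAs. Some act in the nucleus on chromatin or transcription, and most have no assigned function. Their sequences are less conserved between mammals than those of coding exons.

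The samples were mouse. Wild-type aortic smooth muscle cells that received an empty adenovirus were measured on 2 arrays. Smooth muscle cells with a knockout of Srf, the gene of serum response factor, received the same empty virus and were measured on 2 arrays. Wild-type cells that received an adenovirus carrying Myocd, the gene of the serum response factor coactivator myocardin, were measured on 2 arrays. All 6 cultures were maintained in medium with 20% serum and used at passage 3. They were transduced at a multiplicity of infection of 100 in medium with 10% serum and harvested 3 days later. Wild-type aorta and wild-type liver were taken as whole tissue, with 1 array each and therefore no replicate. Nothing in the labels tells whether 2 replicates are separate animals, separate cultures or repeats of 1 culture, so the p-values cover only the spread between these arrays, which may be technical. The empty virus does not occur in the tissues, so culture and virus are both part of each comparison of a tissue with the cells. The comparisons thus address the loss of Srf, the gain of Myocd, and a vascular against a non-vascular tissue.

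Slide 1 held the 4 arrays with empty virus, and slide 2 held the Myocd arrays with both tissues, so slide and Myocd cannot be told apart. Slide is likewise part of each comparison of a tissue with empty-virus cells. Where Myocd arrays were near a tissue in level, they also shared its slide, and the part of the slide was not tested. The share of all probes well above background, Agilent's call for a spot clearly brighter than its local background, ranged from 68.2% to 74.7% over the cultures and stood at 68.9% for aorta and 62.2% for liver. Levels below are log2 intensities relative to each array's own 75th percentile, which was 452 to 498 in culture, 364 in aorta and 165 in liver. No probe was assigned to Srf, Myocd or to markers of smooth muscle, fibroblasts or hepatocytes, so neither the genetic manipulations nor the cell types were checked. No humanlincRNA spot was saturated.

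Fewer humanlincRNA probes than other probes were detected on every array. In wild-type cells 427 of the 1104 (38.7%) were well above background on replicate 1 and 393 (35.6%) on replicate 2. The knockout arrays detected 436 (39.5%) and 509 (46.1%), and the Myocd arrays 409 (37%) and 388 (35.1%). Aorta detected 434 (39.3%) and liver 473 (42.8%). Knockout replicate 2 was the highest of the 8 arrays, for these probes and for all probes. Of the other probes, 62.5% (liver) to 75.2% (knockout replicate 2) were detected. The class share divided by the share of the other probes was 0.51 to 0.613 in culture, 0.565 in aorta and 0.685 in liver, which had the lowest share among other probes and the second highest among humanlincRNA probes. The mouselincRNA class of the same array was closer, at 38.2% to 50.1%, and its ratio to other probes was likewise highest in liver, at 0.68. Probes named as mouse negative sequences, 15 in number, had 1 detected on 6 of the arrays and 0 on the Myocd arrays.

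Most humanlincRNA probes, like most other probes, were either never detected or detected everywhere, but the balance between these differed. On no array were 451 (40.9%) well above background, against 15.9% of other probes, and on all 8 arrays 306 (27.7%), against 52.4%. The remaining members were seen on 1 to 7 arrays, 137 of them on a single array. All 6 cultured arrays detected 326 members, and 2 of these (0.613%) were seen in neither tissue, against 3.44% of the other probes detected on all 6. None of the cultured arrays detected 521 members, of which 70 (13.4%) were seen in a tissue, against 21.1% of the other probes that no cultured array detected.

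Detection in a single group was uncommon. Members were counted that were detected on every array of a group and on no array of any other group. Liver had 42 of these (3.8% of the class, against 2.02% of other probes) and aorta 15 (1.36% against 1.3%). The knockout had 9 (0.815% against 0.396%), Myocd 2 (0.181% against 0.227%) and empty-virus wild-type cells 0. Between cultured groups, 21 members were detected on both knockout arrays and on neither wild-type array (1.9%, against 1.81% of other probes), and 1 showed the reverse (0.0906%, against 0.413%). Myocd against wild type was nearly even, with 9 members gained and 11 lost (0.815% and 0.996%, against 0.861% and 1.47% of other probes). These counts are descriptions without a test, and a tissue with 1 array needs only 1 detection.

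The class was dim. The median level of the 1104 members was -5.68 and -5.75 on the wild-type arrays, -5.56 and -5.26 on the knockout arrays, -5.67 and -5.6 on the Myocd arrays, -5.07 in aorta and -3.93 in liver. The other probes had medians of -3 to -2.76 in culture, -2.51 in aorta and -2.3 in liver. A difference in intensity between probes also holds their different binding to the target, so it is no ratio of RNA amounts. The 306 members detected on all arrays had medians of -2.88 to -2.54 in culture, -2.23 in aorta and -1.05 in liver. Before scaling, their median intensity was 62.7 to 85.4 in culture, 77.3 in aorta and 79.8 in liver, whereas that of the other always-detected probes was 288 to 334 in culture, 272 in aorta and 139 in liver. The liver array was thus dimmer than the cultured arrays for the other probes and within their range for the humanlincRNA probes.

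A few members were bright. A mean level of at least 0 over the 8 arrays, that is at or above the 75th percentile, was reached by 36 members (3.26%, against 24.5% of other probes), and a mean of at least 2 by 11. The brightest, humanlincRNA2438+_P1, had levels of 5.69 and 6.03 in wild-type cells, 5.84 and 5.85 in the knockout, 5.42 and 5.26 with Myocd, 5 in aorta and 5.33 in liver. Its mean was 5.55, and 3.51% of all probes were brighter. The aorta value was the lowest and the cultured groups without Myocd the highest, and none of its 3 comparisons in culture passed the test (limma adjusted p from 0.0788 to 0.948). The next, humanlincRNA2163-_P1, had levels of 4.01 and 4.81 in wild-type cells, 4.55 and 4.38 in the knockout, 5.16 and 5.11 with Myocd, 4.28 in aorta and 4.14 in liver. The Myocd arrays were above all others, yet the difference from wild type, 0.72 (SE 0.27), did not pass (limma adjusted p = 0.136). The third highest mean was 2.92.

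Plus and minus probes of one number were detected largely apart. Of the 547 pairs, 46 had both probes on all 8 arrays, 109 only the plus probe, 103 only the minus probe and 289 neither. The minus probe was detected on all arrays in 29.7% of pairs whose plus probe was and in 26.3% of pairs whose plus probe was not. In 101 pairs one probe was detected on all 8 arrays and its partner on none, with the plus probe detected in 53 and the minus probe in 48. Neither sign was favoured, with 155 plus probes (28.2%) and 151 minus probes (27.2%) detected on every array. By the looser rule of detection on at least 1 array, both probes passed in 202 pairs and the minus probe passed in 65.2% of pairs with a detected plus probe against 55.7% of the others. The partner of the brightest member, humanlincRNA2438-_P1, was detected on all arrays with levels of -4.27 to -2.2.

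For the comparisons in culture, 436 members (39.5%) were tested, those detected on both arrays of 1 or more of the cultured groups, against 73% of other probes. All 3 groups met that rule for 326 of them, 2 groups for 44 and 1 group for 66, which was the knockout for 53, wild type for 7 and Myocd for 6. A member that entered through 1 group was bright there by construction, which for 53 of these 66 means the knockout. The other 668 members have no test, and 451 of those were well above background on no array. Group means were compared with limma over the 6 cultured arrays, two-sided, and a member was called at an adjusted p under 0.05 (Benjamini-Hochberg, over the 44081 probes tested).

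Loss of Srf was accompanied by few calls in the class, nearly all of them higher. Of the 436 tested members 33 were called (7.57%), against 20.6% of all probes tested. Higher in the knockout were 31 members (7.11%, against 12.2% of all) and lower were 2 (0.459%, against 8.40%). The share of members called was below that of all probes in both directions. Of the 31 higher calls, 20 were measured on all arrays of both groups, with log2 changes of 0.56 to 2.26, a median of 0.82 and 1 change over 4-fold. Another 10 were detected on neither wild-type array. For these only bounds can be given, from at least 1.29-fold to at least 1.85-fold higher. The last was measured on part of the arrays. Over all 436 tested members, dim values included as measured, the median fitted log2 change was 0.24 (interquartile range -0.01 to 0.52), against 0.07 (-0.28 to 0.43) for all probes tested. After quantile normalization these medians were 0.09 and -0.03, and the calls split into 21 higher (4.82%, against 11.3% of all) and 8 lower (1.83%, against 10.5%). In the authors' deposited log2 values the split was 16 to 7 (3.77% and 1.65%, against 10.8% and 10.3%). Among the 326 members detected on all 6 cultured arrays, which did not enter through a single group, 22 were higher and 3 lower (7.67% called, against 23.3% of all such probes). In bulk RNA a change in the number of cells of a type and a change in RNA per cell cannot be told apart.

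Single arrays weighed on this count. It was 61 without wild-type replicate 1 (49 higher and 12 lower, or 11.2% and 2.75% of the members, against 11.8% and 8.11% of all probes) and 47 without wild-type replicate 2, but 4 and 3 without knockout replicates 1 and 2, and 22 without either one of the Myocd arrays, which enter only through the shared spread. Knockout replicate 2 was also the array with the highest detection, and its part in the result was not tested beyond these values. The share of all probes called also rose without wild-type replicate 2 and fell without either knockout array or either Myocd array. Without wild-type replicate 1 it stayed near its value with all arrays, although the count of members rose. The share of members called stayed below that of all probes in 16 of 16 alternatives run.

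The measured member with the highest rise in the knockout was humanlincRNA2294+_P1, with levels of -3.39 and -1.47 in wild-type cells, 0 and -0.33 in the knockout, -3.18 and -3.24 with Myocd, -1.82 in aorta and -3.86, not well above background, in liver. Both knockout arrays were above every other array, and the wild-type replicates were far apart. The change was 2.26 (SE 0.58, limma adjusted p = 0.0415), and it missed the threshold in 9 of 16 alternatives, among them leaving out either knockout array (adjusted p = 0.186 and 0.119) or either Myocd array (adjusted p = 0.0712). Its partner humanlincRNA2294-_P1, detected on all arrays, had a change of -0.05 (limma adjusted p = 0.841). The next, humanlincRNA0717-_P1, had levels of -3.43 and -3.29 in wild-type cells, -2.05 and -2.05 in the knockout, -2.85 and -2.94 with Myocd, -0.12 in aorta and -3.07 in liver. The cultured groups did not overlap, with the knockout highest, and the aorta stood above all of them. The knockout change was 1.31 (SE 0.14, limma adjusted p = 0.00241) and passed in all 16 alternatives run, with values from 0.72 to 1.38.

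Both lower calls rested on small margins. Levels of humanlincRNA1929-_P1 were -2.75 and -2.02 in wild-type cells, -3.21 and -3.71 in the knockout, -2.46 and -2.41 with Myocd, -2.79 in aorta and -1.69 in liver. The knockout arrays were the lowest of the 8, and the change was -1.07 (SE 0.29, limma adjusted p = 0.0471). It missed the threshold in 10 of 16 alternatives, for example without wild-type replicate 2 (adjusted p = 0.0826), knockout replicate 1 (0.0982), knockout replicate 2 (0.205) or either Myocd array (0.0837). Levels of humanlincRNA1518-_P1 were 0.99 and 1.35 in wild-type cells, 0.39 and 0.27 in the knockout, 0.45 and 0.57 with Myocd, 0.03 in aorta and -1.58 in liver. Empty-virus wild-type cells were the highest group without overlap, and liver the lowest. The knockout change of humanlincRNA1518-_P1 was -0.84 (SE 0.18, limma adjusted p = 0.023), which missed the threshold in 6 of 16 alternatives (adjusted p = 0.115 and 0.128 without knockout replicate 1 or 2, and 0.0509 without either Myocd array).

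With Myocd the class again had a smaller share of calls than all probes. Of the 436 tested members 23 were called (5.28%, against 15.2% of all), 20 higher (4.59%, against 7.99%) and 3 lower (0.688%, against 7.20%). Of the 20 higher calls, 10 were measured on all 4 arrays, with log2 changes of 0.64 to 2.25, a median of 0.94 and 1 change over 4-fold. Another 9 were detected on neither wild-type array, with bounds from at least 1.22-fold to at least 4.33-fold higher. The remaining 1 was measured on part of the arrays. The median fitted log2 change of the tested members was 0.09, against -0.02 for all probes. Quantile normalization gave 17 higher and 8 lower (3.9% and 1.83%, against 8.13% and 8.6% of all), and the authors' deposited log2 values 12 and 8 (2.83% and 1.89%, against 7.75% and 8.46%). Among the 326 members detected on all 6 cultured arrays 11 were higher and 3 lower (3.37% and 0.92%, against 8.44% and 8.74% of all such probes). Leaving out single arrays moved the share of all probes called in the same direction as the count of members in each case. The count over the 436 was 40 without wild-type replicate 1, 42 without wild-type replicate 2, 13 without either knockout array, and 15 and 7 without Myocd replicates 1 and 2.

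The strongest measured response to Myocd was that of humanlincRNA1590+_P1. Its levels were -4.17 and -4.13 in wild-type cells, -4.41 and -3.96 in the knockout, -1.82 and -1.98 with Myocd, -2.45 in aorta and -3.88, not well above background, in liver. Both Myocd arrays were above all others, followed by aorta. The rise over wild type was 2.25 (SE 0.19, limma adjusted p = 0.00142), a 4.76-fold change, and it passed in 16 of 16 alternatives with values from 1.19 to 2.33. Its partner humanlincRNA1590-_P1 was detected on no array. The next, humanlincRNA2253-_P1, had levels of -2.08 and -2.53 in wild-type cells, -2 and -2.22 in the knockout, -1.1 and -0.86 with Myocd, -0.9 in aorta and -2.88 in liver. The Myocd arrays lay above the other cultures and at the level of aorta. The rise was 1.33 (SE 0.21, limma adjusted p = 0.0111), and it missed the threshold only without Myocd replicate 2 (adjusted p = 0.0792) among the 16 alternatives.

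Among the members lower with Myocd, humanlincRNA2410+_P1 had levels of 1.34 and 1.75 in wild-type cells, 1.87 and 1.75 in the knockout, 0.31 and 0.44 with Myocd, 0.48 in aorta and 2.51 in liver. Both Myocd arrays and the aorta lay below all other arrays. The change was -1.17 (SE 0.18, limma adjusted p = 0.0117) and did not pass when either Myocd array was left out (adjusted p = 0.0754 and 0.0647). The partner, humanlincRNA2410-_P1, was detected on all arrays with a change of 0.04 (limma adjusted p = 0.904). The other member named here, humanlincRNA1524-_P1, had levels of -4.53 and -4.67 in wild-type cells and -5.58 and -5.72, not well above background, with Myocd. Its change of -1.05 is given as at least 1.09-fold lower (limma adjusted p = 0.0497), and the call was lost in 10 of 15 alternatives (adjusted p = 0.116, 0.079, 0.149 and 0.211 without wild-type replicate 1 or 2 or Myocd replicate 1 or 2).

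Myocd against the knockout gave the highest count of the 3 comparisons for the class. Of the 436 tested members 45 were called (10.3%, against 28.0% of all), 11 higher with Myocd (2.52%, against 11.7%) and 34 lower (7.8%, against 16.2%). Of the 34 lower calls, 21 were measured on all 4 arrays, with changes of 0.47 to 3.04 in size and a median of 0.65. Another 7 were measured on part of the arrays. The other 6 were detected on neither Myocd array, with bounds from at least 1.05-fold to at least 1.44-fold lower. Of the 11 higher calls, 8 were measured on all 4 arrays, with changes of 0.69 to 2.28 and a median of 0.95. Another 1 was measured on part of the arrays. The other 2 were detected on neither knockout array and were at least 1.95-fold and 2.49-fold higher. The median fitted log2 change of the tested members was -0.12, against -0.08 for all probes. The split was 20 higher and 27 lower after quantile normalization (4.59% and 6.19%, against 13.5% and 15.6% of all), and 14 and 21 in the authors' deposited log2 values (3.3% and 4.95%, against 12.9% and 15%). Among the 326 members detected on all 6 cultured arrays 11 were higher and 22 lower (3.37% and 6.75%, against 12.8% and 16.6% of all such probes). Here too, leaving out single arrays moved the share of all probes called in the same direction as the count of members. The count over the 436 was 70 without either wild-type array, 18 and 16 without knockout replicates 1 and 2, and 21 without either Myocd array. The excess of lower calls was not kept throughout, with 8 higher and 13 lower without Myocd replicate 1 but 11 higher and 10 lower without Myocd replicate 2.

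The members leading this comparison overlapped with those above, since the comparisons share arrays. Higher with Myocd than in the knockout were humanlincRNA1590+_P1, by 2.28 (SE 0.19, limma adjusted p = 0.000505), and humanlincRNA1113-_P1, by 1.37 (SE 0.15, limma adjusted p = 0.00153). The latter had levels of -2.01 and -2.1 in wild-type cells, -2.48 and -2.24 in the knockout, -0.93 and -1.03 with Myocd, -1.59 in aorta and -0.67 in liver. The Myocd arrays were above the other cultures and above aorta, and liver was higher still. Lower with Myocd were humanlincRNA2294+_P1, by -3.04 (SE 0.58, limma adjusted p = 0.0115), and humanlincRNA2410+_P1, by -1.44 (SE 0.18, limma adjusted p = 0.00261). The call on humanlincRNA2294+_P1 was lost without knockout replicate 1 (adjusted p = 0.0688), Myocd replicate 1 (0.0504) or Myocd replicate 2 (0.0582).

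Of the 436 tested members 66 were called in at least 1 of the 3 comparisons (15.1%, against 36.8% of all probes tested) and 370 in none. Both the knockout and Myocd were called against wild type for 8 members (1.83%, against 6.51% of all). All 8 were higher in both (1.83%, against 2.11%), with 0 lower in both (against 1.78%) and 0 called in opposite directions (against 2.63%). These 2 comparisons share the wild-type arrays, so the same sign is no independent result. None of the 8 was called between Myocd and the knockout.

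Plus and minus partners of the called members were called in small numbers. In the knockout comparison 16 plus and 17 minus probes were called, and 2 of their 19 tested partners were called too (10.5%, against 7.57% of the tested class). With Myocd 11 plus and 12 minus probes were called, and 0 of 11 tested partners (the class share was 5.28%). For Myocd against the knockout 20 plus and 25 minus probes were called, and 4 of 20 tested partners (20%, against 10.3%). All 6 partners called had the direction of the first probe, and since both probes of such a pair count as each other's partner, the numbers are too small to set against the class shares.

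To take their dimness into account, the members were set beside other tested probes of the same mean level in culture, in bins of 1 log2 unit. The 4 bins from -5 to -1 hold 42 to 122 members each, most of the tested class. Probes that entered through 1 group, bright there by construction, were not left out of the bins. For the members this group was mostly the knockout. In the knockout comparison the called share of members was 10.3% against 14.2% of other probes between -5 and -4, 5.74% against 14.8% between -4 and -3, 6.74% against 17.5% between -3 and -2, and 2.38% against 21.1% between -2 and -1. The called share of the other probes rose with level, and that of the members did not. With Myocd the shares in the same order were 9.4% against 10.2%, 3.28% against 10.8%, 1.12% against 12.7% and 7.14% against 14.9%. For Myocd against the knockout they were 10.3% against 19.6%, 8.2% against 20.6%, 10.1% against 23.7% and 14.3% against 28.9%. The members' share was the lower of each pair in all of these bins and comparisons, though in the dimmest bin with Myocd the shares were close. By direction, members between -5 and -4 had 7.69% higher with Myocd, against 6.5% of other probes, and 1.71% lower, against 3.73%. In the knockout these were 10.3% against 11.3% higher and 0% against 2.89% lower. For Myocd against the knockout they were 0.855% against 6.03% and 9.4% against 13.5%. From -4 to -1 the members' share was the lower in both directions. Brighter bins hold at most 18 members each.

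At the same level the members had about the same standard error as other probes and mostly smaller changes. The median SE in the knockout comparison was 0.27 for members and 0.26 for other probes between -5 and -4, 0.21 and 0.21 in the next bin, 0.19 and 0.18 in the third and 0.17 and 0.17 in the fourth. The median size of the log2 change was 0.47 for members and 0.4 for other probes in the dimmest of these bins, then 0.26 and 0.33, 0.29 and 0.31, and 0.24 and 0.32. Over all levels, replicates of the members differed with a robust SD of 0.406 in wild type, 0.277 in the knockout and 0.347 with Myocd, against 0.429, 0.218 and 0.215 for other probes.

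In the tissues the members differed from the array as a whole mainly in liver, a trait they shared with mouselincRNA probes. Probes were counted as at least 4-fold apart, with a bound where a side was not well above background on any of its arrays. No test was run, because each tissue has 1 array. Between aorta and liver 521 members could be compared. Higher in aorta were 4 (0.768%, against 12.3% of all probes compared) and lower in aorta were 119 (22.8%, against 13.3%). Of the 119, 35 were not well above background in aorta. In these counts liver was the higher tissue for nearly all members that were 4-fold apart, whereas all probes were near evenly split. Dim liver values were raised to at least -3.52, and the members detected in aorta had an upper quartile of -1.68. Over a dim liver value most of these had too little room for a 4-fold excess, and all probes were not matched for level. With detection on both sides 1 member was higher in aorta (0.26%, against 10.1%) and 84 lower (21.8%, against 13.4%). Of 311 mouselincRNA probes 4 were higher in aorta (1.29%) and 52 lower (16.7%). Against wild-type cells, 210 of 494 members were higher in liver (42.5%, against 23.5% of all) and 2 lower (0.405%, against 16.2%). Of the 210, 62 were detected on neither wild-type array. The mouselincRNA class gave 112 of 305 higher (36.7%) and 0 lower. Aorta against wild-type cells showed less, with 34 of 457 members higher (7.44%, against 10.6%) and 1 lower (0.219%, against 8.31%).

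The size of the liver difference depended on how the arrays were scaled and background-corrected. The liver array was divided by the lowest 75th percentile, 165, which raises every probe relative to the cells. Without any scaling, liver against wild-type cells gave 44 members higher (8.91%, against 6.47% of all probes) and 8 lower (1.62%, against 28.8%). The members 4-fold apart in either direction were then 10.5%, against 35.3% of all, whereas with scaling they were 42.9%, against 39.7%. Aorta against liver without scaling gave 18 higher in aorta (3.45%, against 23.3%) and 24 lower (4.61%, against 4.03%), and aorta against wild-type cells 22 higher (4.81%, against 7.86%) and 2 lower (0.438%, against 12.1%). After quantile normalization liver against wild-type cells gave 143 higher (28.9%, against 17.8%) and 2 lower (0.405%, against 18.6%). Aorta against liver gave 9 higher in aorta (1.73%, against 14.5%) and 120 lower (23%, against 13.1%), and aorta against wild-type cells 19 higher (4.16%, against 9.19%) and 2 lower (0.438%, against 9.14%). With normexp background correction and the main scaling, liver against wild-type cells gave 65 higher (13.2%, against 10.6%) and 1 lower (0.202%, against 11.7%). Aorta against liver then gave 1 higher in aorta (0.192%, against 6.92%) and 35 lower (6.72%, against 5.7%). The side with more members was the same in all of these. Without scaling and with normexp, however, the share of members higher in liver was near that of all probes.

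Always-detected members also lay above the other probes in liver when both were scaled alike. The 306 members detected on all arrays had a median liver difference from wild-type cells of 1.72, against 0.86 for the 31353 other probes detected on all arrays. After quantile normalization it was 1.35 against 0.5. Without scaling it was 0.2 against -0.66, a shift common to all probes that leaves the gap between the classes as it is. Liver was the highest of the 5 groups for 278 of the 306 members (90.8%, against 52.2% of other probes), and for 258 (84.3%, against 46.1%) after quantile normalization. The 185 mouselincRNA probes detected on all arrays were close to the members, with a median liver difference of 1.67 (1.26 after quantile normalization) and liver the highest group for 163 (88.1%). Among the members aorta was the highest for 18, the knockout for 4, and wild type and Myocd for 3 each.

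At matched level the liver difference of the members lay above that of other probes in the bins from -4 to 3, with a wider gap in the brighter of these bins. In bins of mean level over the 8 arrays from -4 to 3, the median liver difference from wild-type cells was 1.66 for 90 members between -4 and -3, 1.76 for 102 between -3 and -2, 1.71 for 53 between -2 and -1, 1.81 for 21 between -1 and 0, and 1.52 for 13, 1.9 for 12 and 2.08 for 9 members in the bins above. The other probes of the same bins had 1.47, 1.37, 1.25, 0.77, 0.24, -0.38 and -0.79. The members' values were thus nearly level from -4 to 0, where those of the other probes declined. The bins above 0 hold under 20 members each, and without them the members' values run from 1.66 to 1.81. After quantile normalization the members' medians were 1.01, 1.32, 1.56, 1.9, 1.77, 2.1 and 2.13 in the same order, and those of the other probes 0.77, 0.82, 0.96, 0.74, 0.39, -0.1 and -0.5. Under that scaling the members' difference was higher in the brighter bins, and it again exceeded that of the other probes in each bin. The 2 brightest members, each alone in a bin above these, had liver differences of -0.27 and -0.53, against -0.57 and -0.37 for the other probes of the bin, so 1 lay above and 1 below. The single liver array also had the lowest 75th percentile (165) and the lowest detection of all probes (62.2%), and the part of these in the result was not tested.

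Across the 3 cultured groups the always-detected members varied less than other probes of their level, apart from the dimmest. The range of the 3 group means had a median of 0.37 for the 306 members and 0.5 for other probes. By bin of level it was 0.4 against 0.41 between -4 and -3, 0.39 against 0.44, 0.33 against 0.47 and, between -1 and 0, 0.35 against 0.55. With aorta and liver included the range was 1.88 against 1.95.

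Single members showed tissue differences of a wide range. The highest measured excess in liver over aorta was that of humanlincRNA0111+_P1, with levels of 2.71 in liver and -3.76 in aorta, an 88.7-fold difference. On none of the 6 cultured arrays was it well above background, with values of -7.11 to -5.34. Liver was thus at least 209-fold above wild-type cells, and its partner humanlincRNA0111-_P1 was detected on no array. The next, humanlincRNA0691+_P1, had levels of 0.95 in liver, -4.08 in aorta and -3.88 and -3.96 in wild-type cells, and it was detected on all 8 arrays. Liver was 32.5-fold above aorta and 29.1-fold above wild-type cells, and the other cultured arrays lay between -3.93 and -2.84. Similarly, humanlincRNA1596+_P1 had 1.71 in liver against -2.79 in aorta and -3.09 and -3.12 in wild-type cells, 28-fold above the latter. Its partner humanlincRNA1596-_P1 was detected on no array, whereas humanlincRNA0691-_P1 was detected on all 8 with levels of -3.97 to -3.09, the highest again in liver.

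Fewer members were higher in aorta. In humanlincRNA1016-_P1 the levels were 0.77 in aorta and 0.04 in liver, against -3.65 and -3.77 in wild-type cells, -3.65 and -3.59 in the knockout and -4.21 and -3.92 with Myocd. Both tissues were above all cultures, and aorta was 22.3-fold above wild-type cells. The aorta level of humanlincRNA0717-_P1, described above for its rise in the knockout, was 9.46-fold above wild-type cells and 7.72-fold above liver. In humanlincRNA0055-_P1 aorta and wild-type cells were close, with 0.5 against 0.28 and 0.11, and liver was not well above background. Aorta was thus at least 16.2-fold and wild-type cells at least 13.1-fold above liver.

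The 1 member at least 4-fold lower in aorta than in wild-type cells was humanlincRNA1094-_P1, with -1.61 in aorta, 0.06 and 1.41 in wild-type cells, 1.79 and 1.37 in the knockout, 1.16 and 1.28 with Myocd and 0.24 in liver. Aorta was the lowest of the 8 arrays and 5.1-fold below the wild-type mean. Wild-type replicate 1 stood below all other cultured arrays, and without wild-type replicate 2 the log2 difference was -1.68, short of 4-fold. In humanlincRNA1518-_P1, the other measured member lower in a tissue, liver was 6.73-fold below wild-type cells.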

How the data were processed

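RNA of 8 mouse samples (0.5 ug each, random-primed, Cy3) was hybridised to one-colour Agilent arrays. Per the file headers, the authors extracted a processed intensity per spot, background-subtracted, with Agilent Feature Extraction 11.0.1.1, which the submitters' processing notes also name. A series table deposited by the authors gives log2 values of 42995 probes, 424 of them humanlincRNA probes. Details of its normalization are not given in the sources used here. It served as an alternative. Per the file headers, the array design is on mm9. Detection flags (well above background, outlier, saturated) are those deposited by the authors.

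Log2 processed intensities of the 61500 non-control spots were averaged by probe, with outlier-flagged spots left out (1 humanlincRNA spot on each of 4 arrays). A level is this value minus the array's 75th percentile over the 60930 probes. Means were compared with limma 3.58.1 (lmFit, eBayes; two-sided) in R 4.3.3, in a fit to the 6 cultured arrays that leaves 3 residual degrees of freedom, with Benjamini-Hochberg adjustment over 44081 probes, after the code was tested on simulated data. SE is limma's. A fold against a group not well above background on any of its arrays is a lower bound. It is the bright mean over the dim mean, with dim values raised to the array's lowest level among detected probes where they lay under it. The number of arrays limits the precision. Tissues were compared by counts at least 4-fold apart. At most 2 probes per direction and comparison are named, those with the highest measured change and then the highest bound, plus the 2 brightest. Replicate numbers were not used to pair the samples, since the labels do not say that same-numbered arrays belong together. Deviations of same-numbered arrays correlated at -0.26, -0.07 and 0.09 over all tested probes, which cannot decide whether they share a source. Alternatives were other scalings, background correction, filters, weights, sample sets and leaving out each array; normexp used the median spot signal. The probes, lists and bins were chosen with earlier results of these data known. No sequences or coordinates of the probes were used.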

Additional observations from a re-analysis of the deposited data

How the results depend on the processing

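With 2 arrays a group, counts of called humanlincRNA probes moved with the settings, and no named probe changed sign. Knockout against wild type (33) gave 18 with normexp background correction and 13 with array weights, and from 3 to 61 when single arrays were left out. Myocd against wild type (23) gave 13 without the filter on dim probes, 14 with probes detected on all 6 cultured arrays, 12 with array weights, 13 with only the arrays compared, and 7 to 42 with single arrays left out. Myocd against the knockout (45) gave 81 with array weights, 70 with only the arrays compared, and 16 to 70 with single arrays left out; its excess of lower calls was lost without Myocd replicate 2 (11 higher, 10 lower). With the replicate number as a block the counts were 20 (4.59% against 14.5%), 15 (3.44% against 9.95%) and 31 (7.11% against 22.8%) in that order. The labels do not say that same-numbered arrays belong together. The median detection share over the arrays was 39%, against 69.2% of other probes. By Agilent's looser flag for positive and significant spots it was 64.3%, against 85%. By the 95th percentile of the negative control spots it was 63.4%, against 84.7%. The median level was -5.58, against -2.84 for other probes. It was -7.8 with the percentile over always-detected probes (against -5.06) and -2.85 with normexp (against -2.04). The gap to other probes was thus smaller by the looser detection rules and with normexp. For aorta against liver, the 123 probes 4-fold apart (23.6% against 25.6%) became 36 with normexp (6.91% against 12.6%) and 42 without scaling (8.06% against 27.4%). The 35 for aorta against wild type (7.66% against 18.9%) became 21 with quantile normalization (4.6% against 18.3%) and 6 with normexp (1.31% against 11.1%). They became 12 in the authors' values (2.93% against 17.7%) and 10 with detection on both sides (2.94% against 16.9%). The 212 for liver against wild type (42.9% against 39.7%) became 66 under normexp (13.4% against 22.2%) and 109 in the authors' values (26.7% against 35.9%). They became 121 with detection on both sides (35.3% against 35%). Without scaling, which was chosen after seeing the data, they became 52 (10.5% against 35.3%). The cause was not tested. Probes dim against background have no measured level in most groups, and the single tissue arrays have no error.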
